A study of Mus musculus with 12 samples.

Results

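The SNPs described here are the 28, of 89 in the whole data set, for which muscle mRNA was sequenced in pool 3 and liver mRNA in pool 4. The rule that chose them uses that layout alone and no measured value, though earlier results of these data were known when they were chosen. They belong to the 50 SNPs that were read in both tissues. Each was read as an amplicon from F1 mice of 1 of 5 crosses between inbred strains, CAST/EIJ-PWD/PHJ giving 6 of the SNPs, FVB/NJ-PWD/PHJ 5, WSB/EiJ-MOLF/EiJ 9, A/J-DBA/2J 1 and A/J-C57BL/6J 7. The mice were 2 littermates per cross, 4 weeks old, untreated as far as the labels say, and their liver or skeletal muscle was pooled for RNA. The templates were therefore muscle mRNA, liver mRNA and genomic DNA (gDNA) of the same cross, the gDNA amplicon lying in pool 1 for 26 of the SNPs and in pool 2 for the other 2, rs30114270 and rs36333425. Each pool was pyrosequenced in 3 runs, which repeat the reading of the same amplicons and are technical. With 1 pooled pair of littermates and 1 amplification per template, every interval and every p-value of the main tests covers the counting of reads only. PCR reads without molecular identifiers are not independent molecules. Some alternatives given at the end take in spread between runs or amplicons, and none covers differences between animals.

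In an F1 animal the parental copies of a gene share 1 nucleus, so the factors acting on them are common to both, and an unequal number of transcripts points to the DNA sequence or the imprint of the copies themselves. A microRNA pairs through its seed, near its 5′ end, with a matching site in a messenger RNA and lowers the amount of that RNA, and a SNP inside such a site can weaken the pairing for 1 allele. The series was built around sites of miR-1 and miR-133, which are abundant in muscle, and of miR-122, which is abundant in liver, together with control sites. An allele ratio in the tissue that holds the microRNA can then be set against the ratio in the tissue that lacks it. Which of the 28 SNPs lies in a site of which microRNA was not used here, nor were gene names, genome positions or the strain that carries each allele. The tissues are bulk samples, so an allele ratio is an average over their cell types in which the number of cells and the RNA per cell cannot be told apart. Since amplicons were mixed in equal molar amounts, read totals say nothing of expression, and the tissue labels could not be checked with marker genes.

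The primers fix what each amplicon reads, and the same pair was used on all 3 templates. gDNA is read as the control for a bias of the primers towards 1 allele. Whether that bias was equal on mRNA and gDNA was not tested. The primers are printed, 5′ to 3′, for the 6 SNPs with the largest difference between muscle and liver, and for rs37743849 and rs32154199, the most deeply read of the SNPs whose tissues were not told apart. 
rs36628412 (A/G) forward: agccactgtaagcaatgtgcc
rs36628412 reverse: aagatggtccccttcagcttg
rs32579269 (A/G) forward: ggagtctaacccacggcatct
rs32579269 reverse: ctctttctaacccctgctggc
rs26888769 (A/G) forward: agcagagaagaaatggtatgttgga
rs26888769 reverse: agcaagaccccatgcctaagt
rs50990432 (C/T) forward: cctgagcaaattcgctataaatga
rs50990432 reverse: tcttctggcttgcaagagacc
rs29429994 (A/G) forward: tgaaccgtcctccatgaactc
rs29429994 reverse: gaaagggcatctaaaggcagg
rs52257281 (A/G) forward: gccagttgggtctacataatgaaa
rs52257281 reverse: tggaccatgattaaactgatttcc
rs37743849 (A/C) forward: caagagcactcctgaactgcc
rs37743849 reverse: ggaagccactctgctgtcact
rs32154199 (A/G) forward: gatctgctttcaccaaggggt
rs32154199 reverse: tgaagtggatagctgaggaggc
The 56 primers of the 28 SNPs are all distinct, so no amplicon shares a primer with another. They are 21 to 27 bases long, with a median GC content of 52.4% (37.5% to 61.9%). Of the SNPs followed below, the forward primer of rs50990432 and the reverse primer of rs52257281 are at 37.5%, and the forward primer of rs27243453 and the reverse primer of rs27858423 at 61.9%. The alleles differed by a transition at 24 SNPs (A/G at 15, C/T at 9) and by a transversion at 4 (A/T at 2, C/G at 1 and A/C at 1).

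Summed over runs, the SNPs had a median of 3707.5 allele reads in gDNA (835 to 11265), 3985 in muscle (653 to 18714) and 4301.5 in liver (1031 to 9022). Run 3 of pool 4 was shallow: it gave 21602 liver reads over the 28 SNPs, against 52254 in run 1 and 48746 in run 2. The muscle runs of pool 3 gave 37543, 54721 and 48237 reads. No allele was rare in the summed reads, the lowest share being the 28.2% of G at rs36628412 in liver.

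Muscle and liver were compared first, because that comparison needs no gDNA. Muscle and liver gave different allele ratios at 18 of the 28 SNPs (Fisher's exact test, two-sided, adjusted p under 0.05 over all 50 SNPs with both tissues, of which 62% were called). The 28 SNPs are close to that background, and their count says nothing particular of them. The median difference was 1.25-fold over the 28 and 1.19-fold over the 50, a fold here being the ratio of the allele ratios in the 2 templates. The fold of a single run sets same-numbered runs of the 2 templates against each other. Among the 18 the median was 1.43-fold, and 6 of the 28 reached 1.5-fold (16% of the 50), namely rs36628412, rs32579269, rs26888769, rs50990432, rs29429994 and rs52257281. The share of an allele did not overlap between the 3 muscle and the 3 liver runs at any of the 18, and overlapped at each of the other 10; over all 50 SNPs the runs were separate at 58%. Since every one of these SNPs has muscle in pool 3 and liver in pool 4, tissue and pool cannot be told apart within the group. The 22 SNPs with the other layout, muscle in pool 4 and liver in pool 2, had 13 calls and a median of 1.15-fold; the difference between the layouts was not tested.

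At rs36628412 the tissues leaned to opposite alleles, by the largest margin of the group. The G allele took 381 of 668, 719 of 1111 and 547 of 891 muscle reads in runs 1 to 3, which is 57.0%, 64.7% and 61.4%. In liver it took 258 of 947, 273 of 950 and 94 of 322 reads, which is 27.2%, 28.7% and 29.2%. All muscle runs lay far above all liver runs, with gDNA between them at 50.8%, 53.3% and 46.3%. The ratio of G to A was 4.10-fold higher in muscle (95% interval 3.64 to 4.63; adjusted p = 5.48e-122 by Fisher's exact test), and single runs gave 3.54-fold to 4.54-fold.

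At rs32579269, in CAST/EIJ-PWD/PHJ, the G allele also held most muscle reads and a minority of liver reads. Its share in the 3 runs was 59.0%, 59.6% and 57.0% in muscle, 42.3%, 43.1% and 41.4% in liver, and 48.4%, 48.8% and 48.4% in gDNA. The runs of each template were tight and the templates were fully separate. The ratio of G to A was 1.91-fold higher in muscle (1.74 to 2.09; adjusted p = 1.52e-43 by Fisher's exact test), with 1.87-fold to 1.96-fold in single runs.

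A different pattern was seen at rs26888769, where G led in both tissues and led further in muscle. Muscle runs had 69.8%, 70.4% and 72.5% G, liver runs 56.2%, 55.2% and 59.4%, and gDNA runs 51.1%, 48.7% and 50.7%. The 3 templates formed 3 separate bands, muscle highest and gDNA lowest. G over A was 1.89-fold higher in muscle than in liver (1.76 to 2.03; adjusted p = 6.16e-70 by Fisher's exact test), from 1.79-fold to 1.94-fold by run.

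rs50990432 and rs52257281 had large differences that were read less evenly. At rs50990432, which has the fewest muscle reads of the group (653 in all), C took 116 of 166, 157 of 247 and 168 of 240 muscle reads (69.9%, 63.6% and 70.0%). Liver runs had 54.6%, 55.7% and 47.3% C, and gDNA runs 62.0%, 58.9% and 64.8%. The tissues were separate, but gDNA overlapped muscle. The difference between tissues was 1.78-fold (1.50 to 2.12; adjusted p = 1.39e-10 by Fisher's exact test), ranging by run from 1.39-fold to 2.59-fold. At rs52257281 the A allele had 56.7%, 64.2% and 56.1% of muscle reads, 46.9%, 38.5% and 55.4% of liver reads, and 51.1%, 56.4% and 52.7% of gDNA reads. Run 3 held 139 liver reads and put the tissues nearly together, and run 2 held 205 and put them farthest apart. The summed difference was 1.60-fold (1.35 to 1.90; adjusted p = 2.83e-07 by Fisher's exact test), and single runs gave 1.03-fold to 2.84-fold, the widest spread of the 18.

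At rs29429994 the muscle runs stood out on their own. The A allele had 65.1%, 64.2% and 65.2% of muscle reads, 51.0%, 53.4% and 58.4% of liver reads, and 56.2%, 56.4% and 51.4% of gDNA reads. The liver and gDNA runs overlapped. Muscle over liver was 1.63-fold for A over G (1.40 to 1.91; adjusted p = 2.13e-09 by Fisher's exact test).

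The differences at rs38362016 (C over T 1.48-fold higher in muscle, 95% interval 1.37 to 1.59) and rs30896490 (A over G, 1.46-fold, 1.33 to 1.59) completed the 8 largest. rs30896490 was the steadiest of the 18 over same-numbered runs, which gave 1.45-fold to 1.46-fold. Its A share was 57.9%, 57.4% and 57.8% in muscle and 48.7%, 48.0% and 48.4% in liver. Next, with C over T higher in muscle, were rs46192522 (1.42-fold), rs30114270 (1.36-fold) and rs27858423 (1.35-fold), and with G over A higher, rs29924703 (1.43-fold) and rs48781035 (1.35-fold). The deepest of them, rs48781035, was read 18714 times in muscle and 9022 times in liver, and its G share was 46.9% in the summed muscle reads against 39.6% in liver. The smallest called differences were at rs32130254 (G over A, 1.25-fold), rs27806858 (A over T, 1.24-fold), rs31785960 (A over G, 1.24-fold), rs36610938 (C over G, 1.23-fold) and rs36830095 (A over G, 1.18-fold). Of these, rs31785960 and rs36830095 were not called without run 1 (1.16-fold and 1.12-fold). With extra variance between amplicons, the same 2 SNPs and rs36610938 were not called.

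In the reads as counted, without gDNA, the allele with more reads was a different one in muscle than in liver at 9 of the 18 SNPs and the same one at the other 9. rs50990432, rs29429994, rs26888769, rs27858423, rs48781035, rs32130254, rs27806858, rs36610938 and rs36830095 were of the second kind. At the last of these G had most reads in both tissues, with 51.7% of muscle and 55.8% of liver reads. This count takes the reads as they are: against gDNA, which was skewed to C, rs50990432 was called towards C in muscle and towards T in liver. Over all 28 SNPs the allele differed at 11 and was the same at 17, and the count was not made over all 50. Some shares crossed 50% between runs. C at rs38362016 had 51.9% of summed muscle reads but 47.9% in run 1. In liver, A at rs52257281 had 46.4% but 55.4% in run 3, and C at rs50990432 53.9% but 47.3% in run 3.

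At 10 SNPs the tissues were not told apart, and the intervals give the room that counting error alone leaves for a difference. They do not hold the spread between runs. Single runs, with fewer reads, went past the upper bound at some of these SNPs. They reached 1.22-fold at rs30175876 (upper bound 1.15) and 1.37-fold at rs32626835 (upper bound 1.20). rs37743849 allowed the least: the A allele had 52.3%, 49.4% and 52.6% of muscle reads and 52.0%, 49.6% and 53.0% of liver reads, and the fold was 1.001 (0.940 to 1.07). The other deeply read SNPs were rs32154199 (G over A, 1.02-fold, 0.951 to 1.09), rs33350730 (A over G, 1.04-fold, 0.970 to 1.11) and rs36333425 (A over G, 1.05-fold, 0.973 to 1.14). rs32521298 (1.01-fold), rs27243453 (1.02-fold), rs32626835 (1.05-fold), rs30175876 (1.05-fold), rs51083815 (1.07-fold) and rs32565756 (1.08-fold) made up the rest. Their upper bounds ran from 1.07-fold at rs37743849 to 1.26-fold at rs32565756, which had 921 muscle reads. Without run 2, rs30175876 (1.16-fold) and rs51083815 (1.15-fold) were called.

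A lack of difference between tissues went with different positions against gDNA. At rs27243453 the T allele held 59.9% of muscle reads and 60.2% of liver reads, against 49.8% of gDNA reads, and at rs32565756 it held 61.7% and 59.8% against 52.3%. Smaller shifts, to the same side in both tissues, were called at rs36333425 (A over G, 1.16-fold in muscle and 1.11-fold in liver) and rs32154199 (G over A, 1.12-fold and 1.10-fold). Each of these calls was lost under at least 1 of the alternatives given at the end. At rs37743849, rs33350730, rs51083815, rs32521298, rs32626835 and rs30175876 no template was told apart from another in any of the 3 comparisons. The comparisons of muscle and of liver with gDNA share the gDNA reads, so chance errors in gDNA enter both, and they are given side by side without a count of agreement.

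Muscle mRNA differed from gDNA at 19 of the 28 SNPs (Fisher's exact test, adjusted over 75 SNPs, of which 62.7% were called). The runs of muscle and gDNA did not overlap at 15, all of them called (56% of the 75). At 7 the shift was called and reached 1.5-fold (17.3% of the 75). rs26888769 and rs27858423 were the only SNPs of the 28 past 2-fold (4 of the 75 were called there). For rs26888769, with the run values above, the fold was 2.42 for G over A (2.26 to 2.60; adjusted p = 1.41e-135 by Fisher's exact test). At rs27858423 the C allele had 67.1%, 69.9% and 67.3% of muscle reads and 51.2%, 47.7% and 46.1% of gDNA reads, a fold of 2.25 (2.08 to 2.44; adjusted p = 1.52e-87 by Fisher's exact test). Liver runs lay between, at 62.4%, 57.9% and 62.9%.

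At rs29924703 gDNA itself was skewed. The G allele had 53.6%, 51.7% and 53.0% of muscle reads, close to an even share, while gDNA had 39.3%, 39.5% and 42.3% and liver 44.1%, 45.8% and 37.8%. Muscle was separate from both, and liver overlapped gDNA. The fold of muscle over gDNA was 1.65 (1.48 to 1.83; adjusted p = 4.43e-19 by Fisher's exact test).

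The next in size against gDNA were rs36628412 (G over A, 1.58-fold, 1.40 to 1.79), rs27806858 (A over T, 1.58-fold, 1.45 to 1.73), rs29429994 (A over G, 1.52-fold, 1.28 to 1.80), rs27243453 (T over C, 1.50-fold, 1.33 to 1.69) and rs32579269 (G over A, 1.50-fold, 1.37 to 1.64). The remaining 11 called SNPs lay between 1.47-fold at rs32565756 and 1.09-fold at rs38362016. Not called, with the most reads, were rs48781035 (1.03-fold, 0.985 to 1.08), rs37743849 (1.03-fold, 0.965 to 1.09), rs33350730 (1.04-fold, 0.973 to 1.11) and rs51083815 (1.05-fold, 0.966 to 1.14). With extra variance between amplicons only the 10 SNPs from rs26888769 down to rs36610938 (1.30-fold) in size were called. Leaving out run 1 ended the call at rs32130254 (1.12-fold), rs32154199 (1.10-fold), rs38362016 (1.10-fold), rs50990432 (1.25-fold) and rs52257281 (1.20-fold) and made one at rs36830095 (1.15-fold). Leaving out run 2 ended it at rs32130254 (1.11-fold) and rs52257281 (1.22-fold), and leaving out run 3 at rs36333425 (1.12-fold), rs38362016 (1.03-fold), rs50990432 (1.26-fold) and rs52257281 (1.28-fold).

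Liver mRNA differed from gDNA at 20 of the 28 SNPs (Fisher's exact test, adjusted over 64 SNPs, of which 65.6% were called), and the runs did not overlap at 18, all of them called (59.4% of the 64). The SNP furthest from gDNA in liver was rs36628412, here towards A, which held 72.8%, 71.3% and 70.8% of liver reads and 49.2%, 46.7% and 53.7% of gDNA reads. The fold for A over G was 2.59 (2.27 to 2.96; adjusted p = 5.50e-44 by Fisher's exact test). It was the only one of the 28 past 2-fold in liver (2 of the 64 were called there), and 4 were called at 1.5-fold or more (14.1% of the 64).

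rs27858423 followed with C over T at 1.66-fold (1.51 to 1.83; adjusted p = 4.45e-24 by Fisher's exact test). At rs36610938, which came next, the G allele had 63.3%, 63.7% and 60.1% of liver reads, 59.9%, 56.8% and 57.7% of muscle reads, and 48.9%, 51.8% and 53.6% of gDNA reads. Liver was highest, muscle next and gDNA lowest, with no overlap between templates. Liver over gDNA was 1.61-fold (1.46 to 1.78; adjusted p = 5.89e-20 by Fisher's exact test).

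Then came rs27243453 (T over C, 1.52-fold, 1.36 to 1.71), rs32130254 (A over G, 1.45-fold, 1.31 to 1.60), rs48781035 (A over G, 1.39-fold, 1.31 to 1.47), rs50990432 (T over C, 1.39-fold, 1.26 to 1.53) and rs32565756 (T over C, 1.36-fold, 1.21 to 1.52). At rs48781035 the A allele had 61.0%, 59.8% and 60.8% of liver reads, against 53.6%, 53.0% and 52.9% in muscle and 53.2%, 52.1% and 51.5% in gDNA. Its liver runs stood apart and its muscle runs met those of gDNA. At rs50990432 the shift towards T is one against gDNA, which was skewed to C, and C was still the allele with more summed liver reads (53.9%).

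The remaining 12 called SNPs lay between 1.35-fold at rs38362016 and 1.10-fold at rs32154199, and 2 of them, rs52257281 and rs31785960, did not keep their direction in every run. The 4 SNPs with the most reads among the 8 not called were rs37743849 (1.03-fold, 0.963 to 1.09), rs33350730 (1.002-fold, 0.939 to 1.07), rs51083815 (1.02-fold, 0.947 to 1.11) and rs32521298 (1.06-fold, 0.963 to 1.16). With extra variance between amplicons 12 of the 28 were called, without rs52257281, rs36830095, rs30896490, rs31785960, rs46192522, rs30114270, rs36333425 and rs32154199. Without run 1, rs31785960 was not called (1.06-fold), and without run 2 its fold was 1.31. Without run 2 the calls ended at rs32154199 (1.10-fold), rs36333425 (1.11-fold) and rs52257281 (1.14-fold). Without run 3 they ended at rs32154199 (1.08-fold), rs36333425 (1.08-fold) and rs46192522 (1.06-fold), and rs29924703 was called (G over A, 1.25-fold).

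Side by side, as log2 ratios for the allele that was higher in muscle than in liver, rs36628412 stood at 0.66 in muscle over gDNA and -1.37 in liver over gDNA, and rs32579269 at 0.58 and -0.35. The values for rs50990432 were 0.36 and -0.47, for rs52257281 0.30 and -0.38, for rs30896490 0.30 and -0.24, for rs46192522 0.28 and -0.23, for rs30114270 0.24 and -0.20, and for rs38362016 0.13 and -0.43. Muscle was the tissue further from gDNA at rs26888769 (1.28 and 0.36), rs27858423 (1.17 and 0.73), rs27806858 (0.66 and 0.35), rs29924703 (0.72 and 0.20, the liver value not called) and rs29429994 (0.60 and -0.11, the liver value not called). Liver was the tissue further from gDNA at rs36610938 (-0.38 and -0.69), rs32130254 (-0.21 and -0.53), rs48781035 (-0.05 and -0.47), rs36830095 (-0.05 and -0.29) and rs31785960 (0.07 and -0.23), and at the last 3 of these the muscle value was not called. Whether the distances from gDNA differ in size between the tissues was not tested. Of the SNPs called on opposite sides of gDNA, only rs36628412 and rs32579269 kept both calls under the 10 alternatives given at the end. rs50990432 and rs38362016 kept the liver call and lost the muscle call under at least 1 alternative. For rs52257281, rs30896490, rs46192522 and rs30114270, both calls were lost under at least 1.

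The gDNA reads, which control for a bias of the amplification between alleles, were near 1:1 for most of the 28. An exact binomial test called 6 SNPs (adjusted over 89, of which 24.7% were called): rs50990432 (C, 61.8% of summed reads, 95% Wilson interval 60.0% to 63.6%), rs29924703 (A, 59.7%, 57.7% to 61.6%), rs29429994 (A, 54.8%, 51.6% to 58.1%), rs46192522 (C, 52.5%, 51.0% to 54.0%), rs48781035 (A, 52.3%, 51.4% to 53.2%) and rs33350730 (G, 51.8%, 50.7% to 52.9%). The skew of rs50990432 and rs29924703 exceeds their spread between runs, and it changes what a reading of mRNA alone would give. At rs50990432 the summed liver reads held more C than T, while against gDNA they were called towards T. At rs29924703 they held more A than G and were not called against gDNA (G over A, 1.15-fold; adjusted p = 0.0573 by Fisher's exact test). Leaving out run 3 brought the count from 6 to 4, and leaving out run 1 or run 2 raised it to 8 or 7. Over all 89 SNPs the count was 22 with every run, 22 without run 1 or run 2, and 15 without run 3.

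By cross, WSB/EiJ-MOLF/EiJ had a tissue difference at 8 of its 9 SNPs (median 1.35-fold, highest 4.10-fold), A/J-C57BL/6J at 5 of 7 (median 1.43-fold, highest 1.63-fold), CAST/EIJ-PWD/PHJ at 3 of 6 (median 1.11-fold, highest 1.91-fold), FVB/NJ-PWD/PHJ at 1 of 5 (median 1.07-fold, highest 1.24-fold) and A/J-DBA/2J at its 1 SNP, rs31785960. In FVB/NJ-PWD/PHJ the call was rs27806858, although 4 of its 5 SNPs were called in muscle against gDNA and 4 in liver. In A/J-C57BL/6J 5 of 7 SNPs were called in muscle and 3 of 7 in liver. Over the SNPs of all crosses, 62% of 50 were called between tissues. Against gDNA, 62.7% of 75 were called in muscle and 65.6% of 64 in liver. Shares over all SNPs of a single cross were not counted. Each cross is 1 pair of littermates with a handful of SNPs, and the crosses were not tested against each other.

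The spread between runs had a median SD of 2.04 percentage points in gDNA, 1.34 in muscle and 1.63 in liver over the 28 SNPs. It was also taken as a chi-square per degree of freedom, which averages 1 where counting is the only error. The mean was 2.32 in gDNA, 1.79 in muscle and 1.71 in liver, against 1.72, 1.80 and 1.67 over all SNPs, so all lay above 1. The median, which is not to be set against that average, was 1.55 in gDNA, 1.08 in muscle and 1.36 in liver, against 1.37, 1.10 and 1.18 over all SNPs. The value exceeded 3 at 8 gDNA, 5 muscle and 4 liver amplicons of the 28 SNPs. Over all SNPs it did so at 14 of 89 gDNA, 12 of 75 muscle and 9 of 64 liver amplicons. The highest values were 7.90 at rs30175876 in muscle, 7.24 at rs50990432 in liver, 7.22 at rs46192522 in gDNA, 6.93 at rs36830095 in gDNA and 6.73 at rs36610938 in gDNA. At these amplicons the runs spread further than counting gives, and the intervals above, which count reads only, do not hold that spread. At rs46192522 the C share of gDNA was 51.7%, 49.6% and 56.7%, while its muscle runs were at 57.2%, 56.8% and 58.1% and its liver runs at 49.0%, 49.4% and 45.8%. All muscle runs lay above all gDNA runs and all liver runs below them, while the size of the shift varied by run, from 1.06-fold to 1.34-fold in muscle and from 1.01-fold to 1.55-fold in liver.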

How the data were processed

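Per the labels' protocols, about 0.6 g of liver or muscle per cross (0.3 g from each of 2 littermates) gave RNA for cDNA, and about 50 mg of tissue gave gDNA. The deposited values are raw counts of reads of each allele per amplicon, pool and run, per the file headers; how reads were assigned and filtered is not given in the sources used here, nor is a genome build. Alleles were matched by base and reads summed over 3 runs. Each comparison used Fisher's exact test (two-sided; scipy 1.17.1) with Benjamini-Hochberg adjustment over all its SNPs, a threshold of 0.05 and a minimum of 20 reads per template, which every SNP passed. Folds have 0.5 added to each count and 95% intervals from the 4 counts; shares have Wilson intervals. Alternatives were a test stratified by run, limma 3.58.1 on log2 ratios per run, extra variance between amplicons, other minima and added counts, mRNA against 1:1, and each run left out. For gDNA, leaving out runs and other minima were added after the data were seen. The tests were tried on simulated data. The SNPs, tests and naming rule were chosen with earlier results of these data known. By that rule, the text gives for each comparison the 8 largest called SNPs whose sign is shared by every run and the 4 most deeply read SNPs not called, with run values for the largest; run values of other SNPs were chosen after they were seen.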

Additional observations from a re-analysis of the deposited data

Results flagged for a closer look

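The allele ratio differed between muscle and liver reads at 18 of the 28 SNPs, by Fisher's exact test on summed reads. The test was adjusted over 50 SNPs, of which 62% were called. As log2 ratios of muscle over liver, the values for G over A were 2.04 at rs36628412, 0.93 at rs32579269 and 0.92 at rs26888769. For A over G they were 0.71 at rs29429994 and 0.68 at rs52257281, and for C over T 0.83 at rs50990432. Values from 0.56 to 0.43 were found at rs38362016 (0.56), rs30896490 (0.54), rs29924703 (0.52), rs46192522 (0.51), rs30114270 (0.44), rs27858423 (0.44) and rs48781035 (0.43), and smaller ones at rs32130254 (0.32), rs27806858 (0.31), rs31785960 (0.31), rs36610938 (0.30) and rs36830095 (0.24). Each has muscle in pool 3 and liver in pool 4, so pool and tissue cannot be told apart.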

How the results depend on the processing

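Calls among the 28 SNPs were followed under each of 10 alternatives that keep the reference, where they had a value. Between tissues, 13 of 18 kept their direction and stayed called throughout. So did 10 of 19 in muscle against gDNA and 12 of 20 in liver against gDNA. The share kept was not counted over all SNPs. With extra variance between amplicons (SD 0.0759, log2), 10 SNPs were called in muscle against gDNA (24 of 75 in the whole comparison), 12 in liver (26 of 64) and 15 between tissues (21 of 50). With limma on the log2 ratio of each run, 13 (35 of 75), 14 (32 of 64) and 18 (27 of 50) were called. Leaving out 1 run gave 15 to 17 (40 to 41 of 75), 17 to 19 (36 to 41 of 64) and 16 to 20 (28 to 33 of 50). Against 1:1 without gDNA, 3 liver values changed sign and were called on the new side. They went to 0.37 at rs29924703 (A over G), -0.10 at rs33350730 (A over G) and 0.22 at rs50990432 (C over T), as log2. Without a call against 1:1, the sign also changed in liver at rs29429994 and rs32521298. In muscle it did so at rs32521298 (to -0.04, C over T) and rs33350730 (to -0.05, A over G). Run numbers are shared by the pools, but same-numbered runs did not deviate together in every comparison. Between muscle and liver their correlation over SNPs went from -0.43 to 0.36. The main test therefore did not take the numbers as pairs. Folds of single runs, and the direction in every run, do set same-numbered runs against each other. Their ranges hold for that pairing only. With run as a replicate block, the stratified test called, of the 28 SNPs, 18 (45 of 75), 19 (41 of 64) and 18 (31 of 50). Limma with a run term called 16 (39 of 75), 15 (32 of 64) and 14 (19 of 50). The calls between tissues that ended with the run term in limma were rs52257281 (adjusted p = 0.154), rs27858423 (0.0559), rs36610938 (0.0573) and rs36830095 (0.0559). A minimum of 1000 reads left out the shallowest SNPs, with 15, 19 and 17 of the 28 called (43, 41 and 30 over all SNPs). It changed no call among those of the 28 SNPs that it kept.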
